A study of Arabidopsis thaliana with 8 samples.

Results

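The annexin genes of Arabidopsis thaliana, ANNAT1 to ANNAT8, were followed by RNA sequencing in carpels that had lost or gained NGATHA function. The members were the 8 loci annotated as annexins 1 to 8, out of 27197 loci read in each library, and the family was selected on the measured fall of ANNAT1 in the nga mutant against WT. That fall is therefore given as a description, without a test. Carpels, the organs that make up the pistil, were taken by hand from inflorescences of soil-grown plants in long days, at floral stages 8 to 13, with 15 inflorescences for a sample. All plants were of the ecotype Columbia. WT is wild type (2 libraries), nga is labelled 1/2/3/4 for the 4 NGATHA genes (3 libraries), and 35S:NGA is an overexpression line under a promoter that is active in most plant tissues (3 libraries). The labels name neither the alleles in nga, nor the NGATHA gene driven in 35S:NGA, nor the number of independent lines. The NGATHA genes encode transcription factors with a B3 DNA-binding domain that are known for shaping the style and stigma at the top of the pistil.

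Annexins are soluble proteins that bind negatively charged phospholipids when calcium rises, and so move between the cytosol and membranes. In plants they are known for links between calcium signals, reactive oxygen species, secretion and stress responses. ANNAT1 is the best studied of them in Arabidopsis, known for calcium-permeable channel activity at the root plasma membrane and for a part in drought, salt and cold responses.

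Levels are in RPKM, reads divided by the length of the gene and by the mapped reads of the library, as deposited. Mapped reads, worked out from the steps between the lowest RPKM values, ran from 23.1 to 38.3 M per library. Of the 4 NGATHA genes, NGA4 was at 3.83 to 3.97 RPKM in WT and 0.123 to 0.248 RPKM in nga, and NGA3 at 4.81 to 5.47 RPKM in WT, 2.56 to 2.97 RPKM in nga and 102 to 166 RPKM in 35S:NGA. NGA1 (23.5 to 23.9 RPKM in WT, 21.2 to 25.6 RPKM in nga) and NGA2 (8.15 to 9.50 and 7.73 to 14.9 RPKM) overlapped between WT and nga, and such levels do not tell whether the transcripts are intact. In 35S:NGA, NGA1 was at 12.9 to 21.4 RPKM, NGA2 at 5.78 to 8.88 RPKM and NGA4 at 3.68 to 4.56 RPKM. Of the 4 genes only NGA3 was thus above WT in every library of that line. By the headers, lane 6 held both WT libraries with nga 1 and nga 2, lane 7 held 35S:NGA 1 and 35S:NGA 2, and lane 8 held the remaining library of each line. WT and 35S:NGA thus had no lane in common. Putting the lane into the model reaches their comparison by adding the gap between 35S:NGA 3 and nga 3 to the gap between nga and WT within lane 6, which rests on 1 library of each line in lane 8. Library nga 2 stood apart in the clock gene CCA1, at 132 RPKM against 0.460 to 2.86 RPKM elsewhere, and both nga 2 and 35S:NGA 3 in green tissue markers, with sums of 5591 and 5691 RPKM over 8 genes where the other libraries of their groups were at 3061 and 3271 RPKM and at 2805 and 2876 RPKM. All 8 carpel and ovule markers were above 0 in every library, with sums of 384 to 490 RPKM. Sums of 8 mature pollen markers were 29.1 to 58.0 RPKM in WT, 77.7 to 139 RPKM in nga and 61.3 to 241 RPKM in 35S:NGA, with VGD1 and VGDH1 the most abundant. The markers did not all move alike in nga, where against both WT libraries VGD1 was higher in every library and CNGC18 lower. In 35S:NGA, 4 of the 8 were higher in every library than in both WT libraries and HAP2 lower. Of all genes tested, 46.5% had groups that did not overlap between 35S:NGA and WT, so these marker counts are read no further. Sums of 8 genes of the tapetum and microspores were 15.0 to 36.1, 30.3 to 54.0 and 23.8 to 31.6 RPKM, in the same order, and the green tissue sum in WT was 2854 to 2873 RPKM. What part these markers had in the annexin levels was not tested. The labels number the replicates without saying that they were separate plants. P-values thus set differences against the spread among these libraries, which may not be the spread among plants.

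In wild-type carpels the annexin transcripts were mostly those of ANNAT1 and ANNAT2. These 2 genes gave 92.7% and 92.6% of the summed annexin RPKM in WT 1 and WT 2, which came to 233 and 244 RPKM. ANNAT1 averaged 114 ± 9.02 RPKM (SD, n = 2) and ANNAT2 107 ± 2.26 RPKM (SD, n = 2), and the values of the 2 genes overlapped. ANNAT4 followed at 10.9 ± 0.331 RPKM, ANNAT3 at 6.04 ± 0.551 RPKM and ANNAT8 at 0.549 ± 0.211 RPKM (SD, n = 2 each), with no overlap between neighbours in this order. ANNAT5, ANNAT6 and ANNAT7 were at or near 0.

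**Figure D1:**
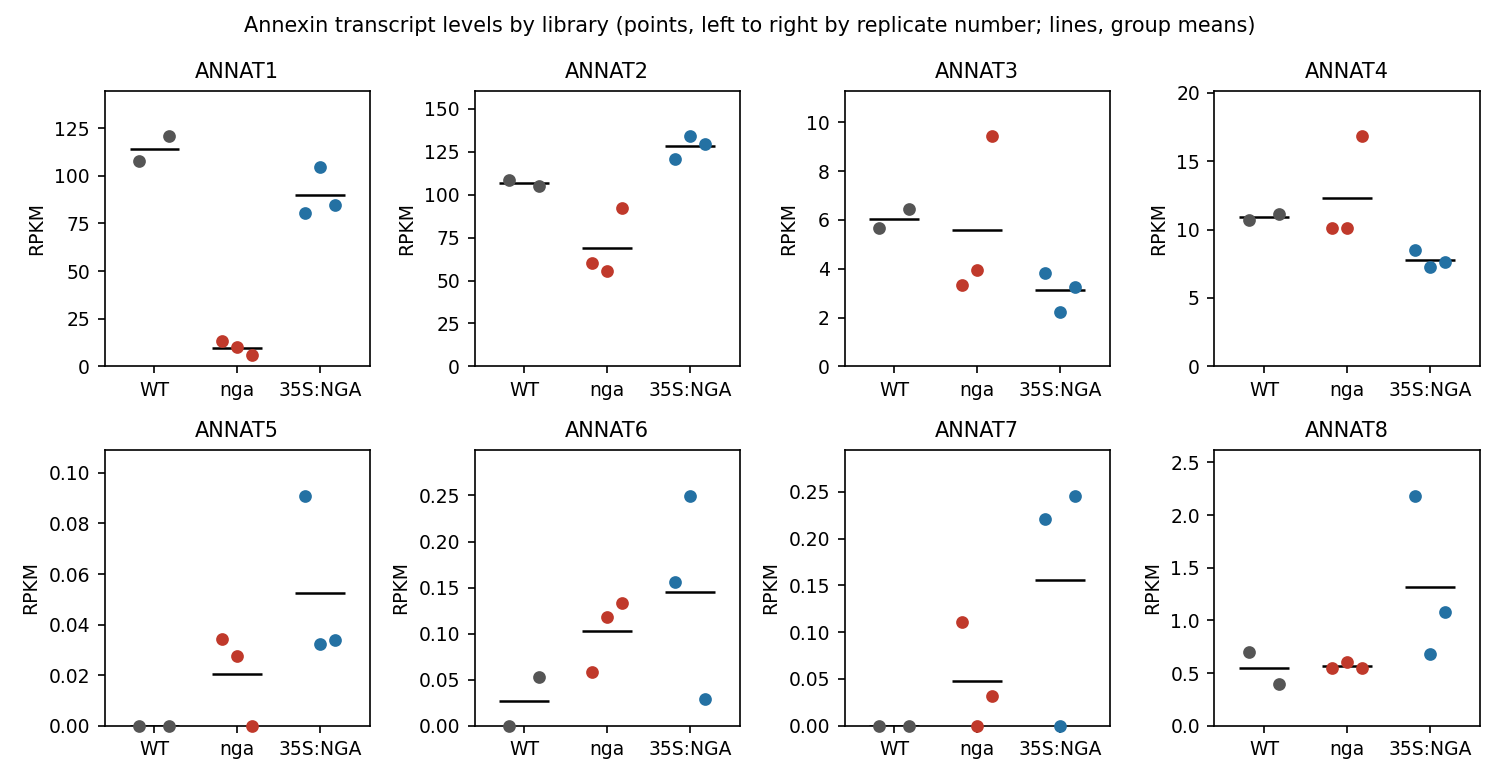
RPKM of each annexin in each library, with 1 panel per gene, an axis of its own from 0 in each panel, points for libraries and lines for group means. The 3 nga points of ANNAT1 lie at 5.93 to 13.5 RPKM, far under all other libraries, while for ANNAT3 and ANNAT4 the library nga 3 lies highest, at 9.42 and 16.8 RPKM.

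ANNAT1 (AT1G35720, chromosome 1, 13225168 to 13227239 on the plus strand in TAIR10.1, 3 exons) had levels of 108 and 121 RPKM in the WT libraries. The nga libraries gave 13.5, 10.3 and 5.93 RPKM. The 35S:NGA libraries gave 80.7, 105 and 84.5 RPKM. All 3 nga libraries were low and overlapped neither of the other groups, and the 35S:NGA libraries lay just under both WT libraries. The values rest on about 223 reads in nga 3 and on 546 to 5729 reads elsewhere, by the exon length in RefSeq. In these whole carpels, fewer cells that express a gene and less RNA per cell cannot be told apart.

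On the log2(RPKM + 1) scale the difference of ANNAT1 in nga from WT was -3.46 ± 0.28 (SE), or 11.0-fold, and only 14 of 17786 genes had a lower value. That scale is used for every difference here, and it understates changes of genes at low RPKM. Within lane 6, nga 1 and nga 2 differed from WT by -3.17 ± 0.16. Leaving out 1 library at a time gave -3.70 to -3.17. These figures describe the contrast by which the family was chosen. PUM9, a Pumilio RNA-binding protein gene on the opposite strand, overlaps the annotated ANNAT1 gene by 103 bases. PUM9 stood at 0.506 to 0.570 RPKM in WT, 1.11 to 1.59 RPKM in nga and 0.454 to 0.612 RPKM in 35S:NGA. Its level was below that of ANNAT1 in every library but came nearest to it in nga, at 1.11 against 5.93 RPKM in nga 3. What part reads of PUM9 had in the ANNAT1 values was not tested.

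In 35S:NGA the mean of ANNAT1 was 89.9 ± 12.9 RPKM (SD, n = 3). Its difference from WT was -0.35 ± 0.28 (SE), with a 95% interval of -0.999 to 0.30 (limma, adjusted p = 0.504). The sign turned with the lane as a term, to 0.46 ± 0.32 (adjusted p = 0.398). This comparison was not used to choose the family, though it shares the WT libraries with the one that was. Against nga, ANNAT1 differed in 35S:NGA by 3.11 ± 0.25, again a description because the nga libraries chose it. In lane 8, which held 1 library of each line, ANNAT1 was 14.2-fold higher in 35S:NGA 3 than in nga 3.

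The promoters of ANNAT1, ANNAT2 and ANNAT4 are shown because ANNAT1 had the wide gap between nga and WT, ANNAT2 a smaller one and ANNAT4 an overlap of the groups. Each is the 300 bases before the annotated gene start, read from TAIR10.1 in the direction of transcription. Capitals mark matches on either strand to CACTTG, a motif reported for NGA1, to CACCTG, the motif known for the B3 domain of the related RAV1 factor, or to CACGTG, the G-box bound by bHLH and bZIP factors. CAAGTG is CACTTG read on the other strand, CACGTG reads the same on both strands, and no matches overlapped.
ANNAT1, chr1:13224868-13225167, plus strand: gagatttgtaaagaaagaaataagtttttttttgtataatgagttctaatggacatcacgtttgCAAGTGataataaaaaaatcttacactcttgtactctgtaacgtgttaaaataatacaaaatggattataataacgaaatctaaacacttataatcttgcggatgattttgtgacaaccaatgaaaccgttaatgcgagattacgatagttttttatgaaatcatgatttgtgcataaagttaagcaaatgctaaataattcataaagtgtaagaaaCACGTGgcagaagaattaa
ANNAT2, chr5:25973504-25973803, plus strand: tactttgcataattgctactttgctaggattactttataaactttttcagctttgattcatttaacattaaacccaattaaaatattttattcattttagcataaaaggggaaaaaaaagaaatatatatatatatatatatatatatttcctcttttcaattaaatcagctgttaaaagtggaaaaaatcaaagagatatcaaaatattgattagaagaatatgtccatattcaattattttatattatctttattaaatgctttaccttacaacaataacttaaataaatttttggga
ANNAT4, chr2:16198833-16199132, minus strand: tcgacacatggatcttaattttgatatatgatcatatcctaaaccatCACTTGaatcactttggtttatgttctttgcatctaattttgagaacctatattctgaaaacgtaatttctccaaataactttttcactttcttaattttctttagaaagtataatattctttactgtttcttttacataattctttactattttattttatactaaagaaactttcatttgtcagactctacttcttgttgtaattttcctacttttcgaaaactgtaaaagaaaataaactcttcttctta
The ANNAT1 window held 1 CACTTG match, at -236 to -231 from the gene start, and 1 CACGTG match, at -19 to -14. The ANNAT4 window held 1 CACTTG match at -253 to -248, and the windows of the other 6 annexins held no match to the 3 motifs. Of 27443 protein-coding genes with such a window, 11.0% held CACTTG, 3.10% CACCTG and 7.09% CACGTG. A match to 6 letters is a description of the window and shows no binding.

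ANNAT2 (AT5G65020, chromosome 5, 25973804 to 25975726 on the plus strand) is known, with ANNAT1, for root growth and for the movement of sugars to the root tip. Its WT libraries gave 108 and 105 RPKM, its nga libraries 60.1, 55.5 and 92.1 RPKM, and its 35S:NGA libraries 121, 134 and 129.6 RPKM. The nga libraries were all lowest, 35S:NGA all highest and WT between them, with no overlap of any pair of groups. Library nga 3 lay nearer to WT than nga 1 and nga 2 did, at 1.59 times their mean.

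In 35S:NGA against nga, ANNAT2 was higher by 0.91 ± 0.18 (SE), or 1.88-fold (limma, adjusted p = 0.0313). This call was lost without WT 1 (adjusted p = 0.0629), WT 2 (0.0627), nga 1 (0.116), nga 2 (0.0861), 35S:NGA 1 (0.0637), 35S:NGA 2 (0.120) or 35S:NGA 3 (0.0730), in a fit of the 2 groups alone (0.0628) and with the lane as a term (0.253). The difference ranged from 0.77 to 1.13 without single libraries, and it was 0.49 ± 0.15 with the lane as a term, where it equals that of 35S:NGA 3 and nga 3 alone. Against WT, ANNAT2 differed in 35S:NGA by 0.26 ± 0.21, with a 95% interval of -0.21 to 0.74 (adjusted p = 0.497). The sign turned with the lane as a term, to -0.38 ± 0.19 (adjusted p = 0.254). In nga the difference from WT was -0.65 ± 0.21, and within lane 6 it was -0.87 ± 0.10, both as a description.

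Set against each other within a library, ANNAT1 and ANNAT2 were near parity in WT, with ANNAT1 to ANNAT2 ratios of RPKM of 0.996 and 1.15. The nga libraries had ratios of 0.225, 0.185 and 0.0644, and the 35S:NGA libraries had ratios of 0.667, 0.782 and 0.652. No group overlapped another in this ratio, which is a description because ANNAT1 in nga is what chose the family. The share of ANNAT1 in the annexin sum was 46.3% and 49.5% for WT, 15.4%, 12.8% and 4.74% for nga, and 37.3%, 42.0% and 37.3% for 35S:NGA.

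The sum of all 8 annexins was 87.9, 80.5 and 125 RPKM for nga and 217, 249 and 226 RPKM for 35S:NGA. Without ANNAT1 the remaining 7 genes summed to 125 and 123 RPKM for WT, 74.3, 70.3 and 119 RPKM for nga, and 136, 144 and 142 RPKM for 35S:NGA. Library nga 3 thus had the lowest ANNAT1 level of all libraries and, for the other annexins together, the highest level of the nga libraries.

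**Figure D2:**
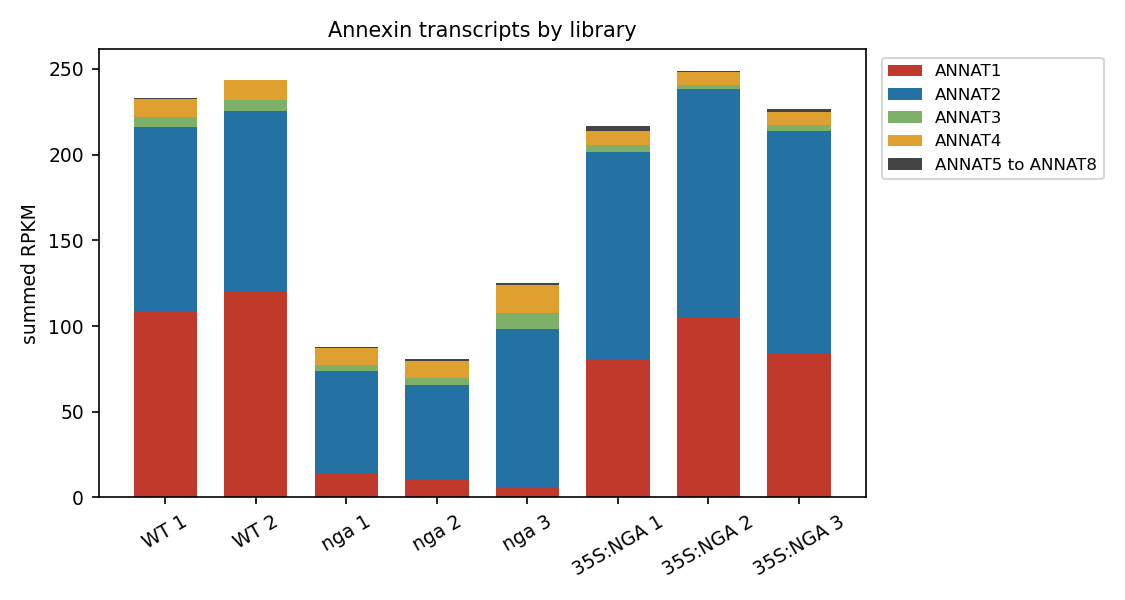
Summed RPKM of the annexins in each library, stacked by gene from ANNAT1 at the bottom, with ANNAT5 to ANNAT8 joined at the top. The bars of nga reach 80.5 to 125 RPKM against 217 to 249 RPKM in the other libraries, and ANNAT1 shrinks to a thin base in nga.

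ANNAT3 and ANNAT4 are neighbours on chromosome 2, with 2111 bases and no annotated gene between them, and they are transcribed away from each other. ANNAT3 (AT2G38760, 16200944 to 16202669) measured 5.66 and 6.43 RPKM for WT, 3.34, 3.95 and 9.42 RPKM for nga, and 3.85, 2.22 and 3.27 RPKM for 35S:NGA. ANNAT4 (AT2G38750, 16196265 to 16198832), known as a partner of ANNAT1 in salt and drought responses, measured 10.7 and 11.1 RPKM for WT. The nga libraries gave 10.1, 10.1 and 16.8 RPKM and the 35S:NGA libraries 8.51, 7.28 and 7.64 RPKM. Both genes were highest in nga 3, where ANNAT3 reached 2.59 times and ANNAT4 1.67 times the mean of nga 1 and nga 2, and both lay lower in every 35S:NGA library than in WT.

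No test of 35S:NGA on ANNAT3 or ANNAT4 passed the threshold, against WT or against nga. Between 35S:NGA and WT, ANNAT3 differed by -0.80 ± 0.36 (SE), with a 95% interval of -1.62 to 0.03 (limma, adjusted p = 0.258). ANNAT4 differed there by -0.44 ± 0.21, with an interval of -0.93 to 0.05 (adjusted p = 0.286). With the lane as a term these were -1.89 ± 0.38 (adjusted p = 0.1004) and -1.15 ± 0.22 (adjusted p = 0.0899), values that rest on nga 3, where both genes were highest, and 35S:NGA 3. Against nga, ANNAT3 differed in 35S:NGA by -0.58 ± 0.32 (adjusted p = 0.303) and ANNAT4 by -0.56 ± 0.19 (adjusted p = 0.125). Without the lane 8 libraries these were -0.23 ± 0.22 and -0.32 ± 0.13 (adjusted p = 0.510 and 0.136).

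In nga against WT the differences were -0.21 ± 0.36 for ANNAT3 and 0.12 ± 0.21 for ANNAT4, as a description. Within lane 6 they were -0.60 ± 0.16 and -0.10 ± 0.12, so the sign of ANNAT4 turned once nga 3 was left out. Both genes lay under both WT libraries in nga 1 and nga 2 and above them in nga 3.

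ANNAT8 (AT5G12380, chromosome 5, 4009168 to 4010687) measured 0.698 and 0.400 RPKM for WT, 0.548, 0.604 and 0.545 RPKM for nga, and 2.18, 0.680 and 1.08 RPKM for 35S:NGA. It reached 1 RPKM in 35S:NGA 1 and 35S:NGA 3 alone, and so it passed the filter on low values only through that group, and its differences are given as a description. The values rest on about 13.8 to 50.8 reads. Against WT it differed in 35S:NGA by 0.53 ± 0.27 (SE), and against nga by 0.51 ± 0.24. In nga it differed from WT by 0.02 ± 0.27. The gene is overlapped on the opposite strand by FIS1B, a gene of organelle fission, at 8.21 to 18.3 RPKM, and by an annotated long non-coding RNA. The kit named in the labels is not stated to keep strand, so reads of these genes cannot be told apart where they overlap.

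ANNAT5, ANNAT6 and ANNAT7 were below the filter of 1 RPKM in at least 2 libraries and were not tested. Whole reads were recovered from their RPKM with a gene length fitted so that every library came near a whole count. The fitted lengths were 949, 1110 and 1176 bases for ANNAT5, ANNAT6 and ANNAT7, against 1281, 1115 and 1279 bases of exon in RefSeq. On these lengths the reads came to 6 for ANNAT5, 27 for ANNAT6 and 20 for ANNAT7 over all 8 libraries. The counts, and the limits given for 0 reads, depend on the fitted lengths. ANNAT5 (AT1G68090), known for pollen development, had 0 reads in both WT libraries and in nga 3, 1 read each in nga 1, nga 2, 35S:NGA 2 and 35S:NGA 3, and 2 reads in 35S:NGA 1. Its 0 reads over WT allow a level of up to 0.0450 RPKM, at a limit of 3 reads over the group, for counting error only. On the opposite strand AT1G68080, at 6.18 to 9.87 RPKM, overlaps the annotated ANNAT5 gene by 349 bases. Whether any of the 6 reads came from AT1G68080 was not tested. Of the 8 pollen markers, VGD1, a pectin methylesterase gene, was highest in the same libraries, at 14.0 to 148 RPKM, and AT4G39110 lowest, at 0 to 0.0609 RPKM.

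ANNAT6 (AT5G10220) and ANNAT7 (AT5G10230) are tandem neighbours on chromosome 5, 666 bases apart and on the same strand. ANNAT6 had 0 and 2 reads for WT, 2, 5 and 4 for nga, and 4, 9 and 1 for 35S:NGA. ANNAT7 had 0 reads in both WT libraries, 4, 0 and 1 for nga, and 6, 0 and 9 for 35S:NGA, and its 0 over WT allows up to 0.0363 RPKM. WT held 0 of the 6 reads of ANNAT5, 2 of the 27 of ANNAT6 and 0 of the 20 of ANNAT7. Most reads were in nga and 35S:NGA, with 3 libraries each against 2 for WT. Mapped reads were 36.2 and 34.2 M for WT, 30.7, 38.3 and 27.0 M for nga, and 23.1, 32.5 and 31.1 M for 35S:NGA. What part depth had in these counts was not tested. The sums of pollen markers, though not each marker, were also higher in nga and 35S:NGA than in WT. By library they were 139, 77.7 and 87.3 RPKM for nga and 61.3, 154 and 241 RPKM for 35S:NGA. In 35S:NGA the reads of neither ANNAT6 nor ANNAT7 followed this order, and in nga those of ANNAT7 did and those of ANNAT6 did not. The part of pollen in these counts was not tested. At 0 to 9 reads a library, differences between groups were not tested.

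The coding sequences of ANNAT6 and ANNAT7 were the most alike in the family, with 85.7% identity over 957 aligned columns. ANNAT2 followed, with 80.9% identity to ANNAT7 and 79.1% to ANNAT6, while ANNAT1 and ANNAT2 shared 67.5%. ANNAT3, ANNAT4 and ANNAT5 shared at most 54.5% with any other member, although ANNAT3 and ANNAT4 are adjacent. The coding lengths were close, from 951 bases in ANNAT5, ANNAT7 and ANNAT8 to 966 bases in ANNAT3. The longest exact runs shared by the coding sequences are shown because they set where a read could match 2 members, in full for the tandem pair, the abundant pair and ANNAT1 with ANNAT7.
ANNAT6 and ANNAT7, 60 bases: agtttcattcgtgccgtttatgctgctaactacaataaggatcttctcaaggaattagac
ANNAT1 and ANNAT7, 27 bases: tgatcatatcaatcttggctcacagaa
ANNAT1 and ANNAT2, 17 bases: aacagcattcctttgga
Reads inside the run shared by ANNAT6 and ANNAT7 could not be assigned to 1 of them, so the split of their few reads is uncertain. The read length is not given in the sources used here. The longest run that ANNAT2 shared with any member was 25 bases, with ANNAT6, so the abundant pair had no run as long as that of the tandem pair. Whether reads were shared between members was not tested.

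**Figure D3:**
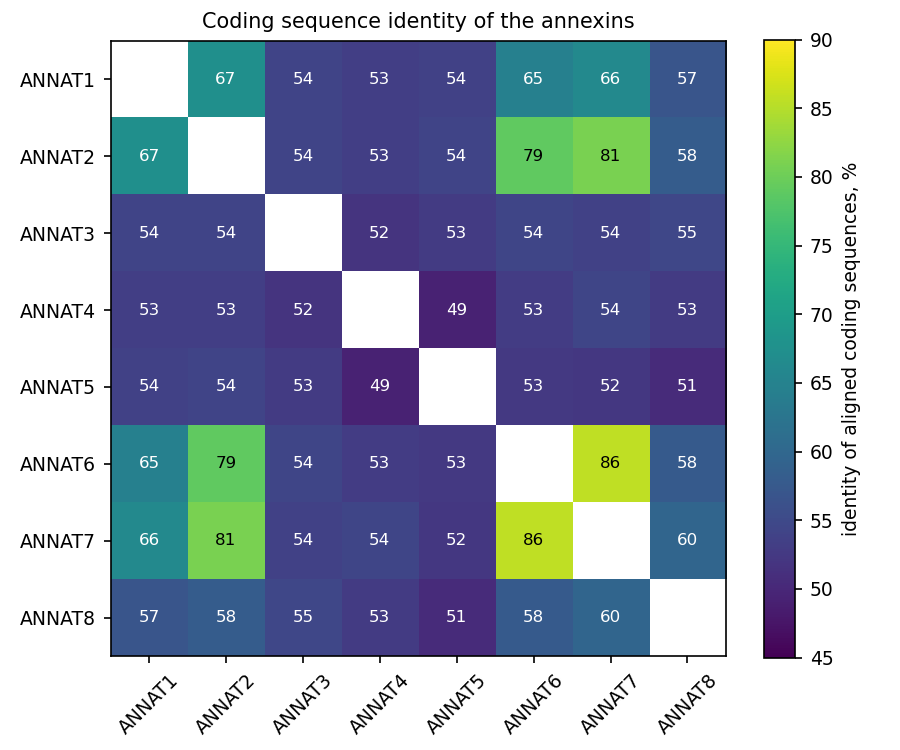
Identity of each pair of annexin coding sequences in percent of aligned columns, with genes on both axes and color and number giving the same value. ANNAT6 with ANNAT7 is highest at 85.7%, ANNAT2 groups with both, and ANNAT4 with ANNAT5 is lowest at 49.3%.

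Over the family, 5 of the 8 members passed the filter on low values, of which 4, ANNAT1 to ANNAT4, were at 1 RPKM or more in every library and are counted here. In 35S:NGA against WT, limma called 0 of these 4, against a background of 0.152% of 17786 genes, and 0 had an unadjusted p under 0.05, against 20.4% of all genes. Their groups overlapped for none of the 4, of which 3 lay lower and ANNAT2 higher, while 46.5% of all genes tested had groups that did not overlap. In 35S:NGA against nga, 2 were called, both higher, against a background of 5.34% in either direction and 3.72% higher. These 2 were ANNAT1, which the choice of the family fixes, and ANNAT2. In nga against WT, 1 was called, ANNAT1, against a background of 16.9%, and nothing is read from this count. The comparisons share control libraries in pairs, so their values are set side by side and not counted as separate evidence.

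**Figure D4:**
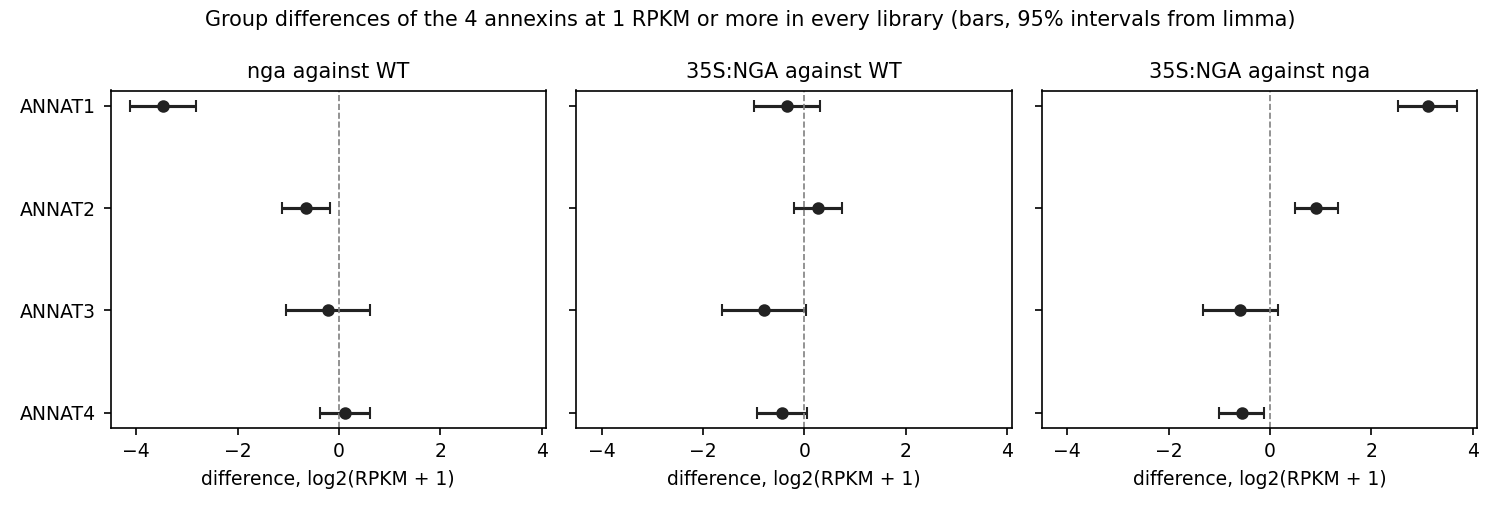
Differences on the log2(RPKM + 1) scale for the 4 annexins at 1 RPKM or more in every library, with 1 panel per comparison, points for the estimates and bars for 95% intervals. ANNAT1 stands at -3.46 in nga against WT and at 3.11 in 35S:NGA against nga, both descriptions, and all 4 intervals span 0 in 35S:NGA against WT.

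Genes that handle calcium beside the annexins were read as a list. It held 30 channels, pumps, exchangers and annexin partners and 9 proteins with C2 domains, which bind membranes in a calcium-dependent way. Of these 39 genes 38 were tested. In nga against WT 1 rose and 2 fell, 7.89% of those tested against the background of 16.9%, and the count was 0 without WT 1, WT 2, nga 1 or nga 2, where 0.231%, 0.265%, 2.77% and 4.76% of all genes were called. Within lane 6 it was 9 of 37 tested, or 24.3%, against 32.4% of all genes. GLR3.7 (AT2G32400), a glutamate receptor-like channel gene, fell from 10.7 and 10.1 RPKM (WT) to 4.96, 4.30 and 6.66 RPKM (nga) (difference -0.87 ± 0.18, limma, adjusted p = 0.0218). TPC1 (AT4G03560), the vacuolar cation channel, rose from 33.3 and 27.8 RPKM to 51.6, 51.3 and 44.8 RPKM (0.67 ± 0.14, adjusted p = 0.0237). PLDBETA1 (AT2G42010), a phospholipase D that cleaves membrane lipids, fell from 10.2 and 10.4 RPKM to 6.71, 6.36 and 7.06 RPKM (-0.55 ± 0.14, adjusted p = 0.0358). The WT and nga libraries of each gene did not overlap, which is read no further because the genes were picked as called. In 35S:NGA against WT, GLR3.7 differed by -0.24 ± 0.18, TPC1 by 0.49 ± 0.14 and PLDBETA1 by 0.30 ± 0.14 (limma, adjusted p = 0.459, 0.149 and 0.262). GLR3.7 and TPC1 thus had the same sign in both lines against WT, and PLDBETA1 had opposite signs.

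Between nga and 35S:NGA, 3 genes of the calcium list rose and none fell, 7.89% of those tested against the background of 5.34%. The count was 1 without WT 1, WT 2, nga 1, 35S:NGA 1 or 35S:NGA 2, where 2.01% to 3.603% of all genes were called, and 6, or 15.8%, without nga 3, against 14.2% of all genes. PLDBETA1 reached 13.8, 14.0 and 11.0 RPKM (difference from nga 0.85 ± 0.12, limma, adjusted p = 0.00840). CAX3 (AT3G51860), a vacuolar exchanger of calcium for protons, rose from 14.0, 18.5 and 6.48 RPKM to 35.3, 35.2 and 35.1 RPKM (1.48 ± 0.30, adjusted p = 0.0326). OST1 (AT4G33950), an abscisic acid signalling kinase known to phosphorylate ANNAT1 in the cold, rose from 10.2, 11.5 and 11.3 RPKM to 14.5, 15.9 and 16.5 RPKM (0.47 ± 0.11, adjusted p = 0.0435). In all 3 genes, picked because they were called, every 35S:NGA library lay above every nga library, which is read no further. In WT, CAX3 was at 21.7 and 21.4 RPKM, between nga and 35S:NGA, and OST1 at 8.68 and 8.98 RPKM, below both. Against WT, CAX3 differed in 35S:NGA by 0.68 ± 0.34 and OST1 by 0.76 ± 0.12, neither of them called (limma, adjusted p = 0.292 and 0.0532). Between WT and 35S:NGA, limma called 0 of the 38, against the background of 0.152%, and 7 had an unadjusted p under 0.05, against 20.4% of all genes.

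The genes nearest to ANNAT1 in profile were found by the root mean square distance of log2(RPKM + 1), centred on each gene's mean, over the 8 libraries, among 6422 named genes that averaged 5 RPKM or more. They were PR5 (AT1G75040), a pathogenesis-related gene of the thaumatin-like family, at a distance of 0.40, and MYB4 (AT4G38620), a repressor of phenylpropanoid genes, at 0.47. SAG13 (AT2G29350), a gene of ageing leaves, followed at 0.59, TT7 (AT5G07990), the flavonoid 3'-hydroxylase, at 0.61 and MLO6 (AT1G61560), of the mildew resistance locus family, at 0.63. PR5 measured 15.5 and 15.5 RPKM for WT, 0.697, 0.453 and 0.642 RPKM for nga, and 15.8, 25.1 and 10.7 RPKM for 35S:NGA. MYB4 measured 38.7 and 35.0 RPKM for WT, 7.64, 1.22 and 2.79 RPKM for nga, and 36.4, 38.8 and 31.8 RPKM for 35S:NGA. In all 5 genes the nga libraries were lowest, which their choice by likeness to ANNAT1 fixes, and the libraries share groups, lanes and depth with those of ANNAT1.

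**Figure D5:**
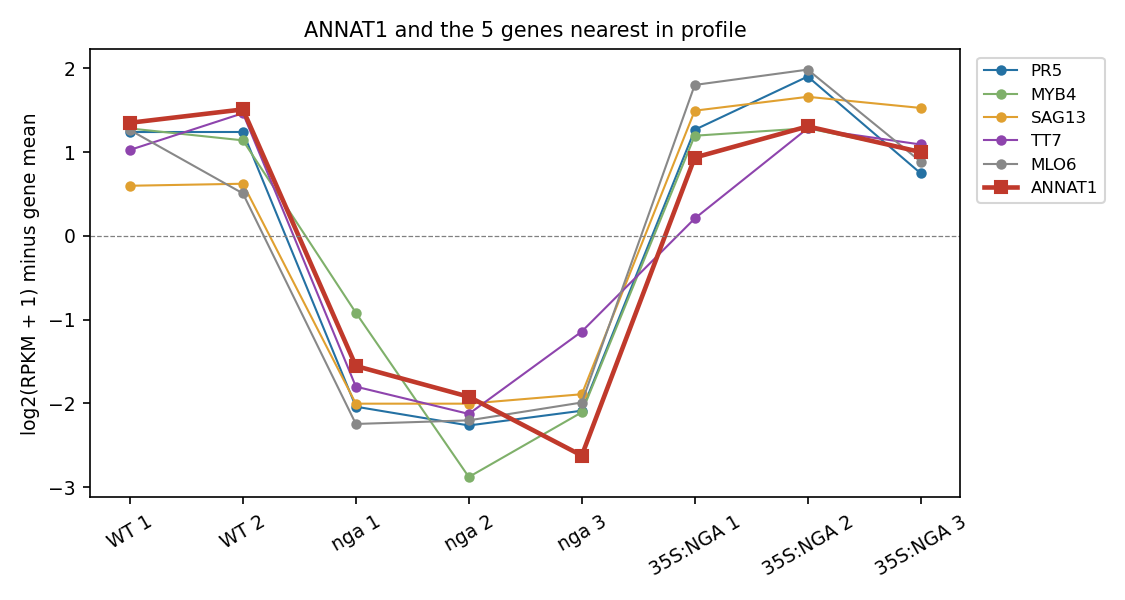
Log2(RPKM + 1) minus each gene's own mean in the 8 libraries for ANNAT1 and the 5 genes nearest to it in profile, with lines only joining the points of a gene. All 6 genes lie below 0 in the 3 nga libraries and above 0 in the other 5, and ANNAT1 is lowest in nga 3.

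ANNAT2 and ANNAT4 had closer neighbours in profile, since their values varied less. The nearest to ANNAT2 were IPP1 (AT5G16440), an isomerase of isoprenoid synthesis, at 0.10, the small GTPase gene RAB1A (AT5G47200) at 0.11 and TTL4 (AT3G58620), a tetratricopeptide protein gene, at 0.12. IPP1 measured 106 and 97.0 RPKM for WT, 64.7, 52.8 and 83.6 RPKM for nga, and 104, 138 and 121 RPKM for 35S:NGA, with nga 3 again the highest of the nga libraries. The nearest to ANNAT4 were PnsB4 (AT1G18730), a subunit gene of the chloroplast NDH complex, at 0.09, the jasmonate repressor gene JAZ6 (AT1G72450) at 0.10 and APK (AT2G14750), a kinase gene of sulfate assimilation, at 0.10. In JAZ6 as in ANNAT4, nga 3 was highest of all libraries, at 144 RPKM against 68.98 to 96.6 RPKM elsewhere.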

How the data were processed

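The authors deposited 1 RPKM value per entry and library, per the file headers, with decimal commas. TAIR10 and FastQC are named in the submitters' processing notes, while the aligner and counter are not given in the sources used. The 6374 entries without a gene model (all 0), 18 entries of 9 repeated loci and 1 malformed entry were left out. Mapped reads came from the step between low RPKM values of genes without annotated UTRs, of which 94.8% to 96.9% per library fell within 0.1 of a whole read.

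One limma model (limma 3.58.1, R 4.3.3, mean-variance trend) was fitted to log2(RPKM + 1) of the 17786 genes that reached 1 RPKM in 2 or more libraries, with all 8 libraries and the 3 groups as terms. P was adjusted by Benjamini-Hochberg over all genes tested, with a threshold of 0.05. The model was also run on simulated data with independent noise for each gene and no lane or library effect. That run therefore does not show how such effects act on the calls. As the files hold RPKM and not counts, no count test was made.

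Sequences and coordinates are from RefSeq TAIR10.1, which matched 26710 of 27197 loci. Coding sequences were aligned with Biopython 1.88. The members, lists, tests and alternatives were chosen with earlier results of these data known. Named genes were the 8 annexins, up to 5 called genes of the calcium list per comparison by p, and the 5 (ANNAT1) or 3 (annexins with a mean of at least 10 RPKM) genes nearest in profile; the NGATHA genes, CCA1, overlapping genes and single pollen markers, the last chosen after their values were seen, serve as checks.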

Additional observations from a re-analysis of the deposited data

How the results depend on the processing

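Over the tested differences of single annexins, 113 gene and setting pairs kept their direction and their side of the threshold, 9 were weakened, all for ANNAT2 in 35S:NGA against nga and all given above, and 2 were reversed. Over the differences given as descriptions, ANNAT8 among them, 127 moved by less than the spread between replicates and 7 by more, and 7 small ones turned sign, all for nga against WT: 1 of ANNAT3, 4 of ANNAT4 and 2 of ANNAT8, with ranges of -0.60 to 0.03, -0.10 to 0.24 and -0.12 to 0.16. The reversed values were those with the lane as a term in 35S:NGA against WT, 0.46 for ANNAT1 and -0.38 for ANNAT2. Those that moved by more were ANNAT1 with a pseudocount of 5, at -3.03 for nga against WT and 2.70 for 35S:NGA against nga, and with the lane as a term for the latter, at 3.62, and 4 values of ANNAT8 with pseudocounts of 0.1 and 5. In nga against WT, 1 annexin was called, but 2 with the replicate block, 2 without the lane 8 libraries, 2 with the lane as a term, 3 among the lane 6 libraries only (ANNAT1, ANNAT2 and ANNAT3, the last at -0.60 with limma's adjusted p = 0.0413), and 1 to 2 without single replicates, with 2 without nga 3. Between nga and 35S:NGA, 2 were called, but 1 in the fit of the 2 groups compared, 1 with the lane as a term, and 1 to 2 without single replicates. Between WT and 35S:NGA, 0 were called in every setting run. The calcium list had 3 calls in nga against WT, but 6 with quantile normalization, 6 with the replicate block, 8 without the lane 8 libraries, 8 with the lane as a term, 9 among the lane 6 libraries only, and 0 to 5 without single replicates. In 35S:NGA against WT it had 0, but 1 with a pseudocount of 0.1, 1 with the filter at a mean of 5 RPKM, 2 in the fit of the 2 groups compared, and 0 to 1 without single replicates. Between nga and 35S:NGA it had 3, but 1 without a filter, 1 in the fit of the 2 groups compared, 5 without the lane 8 libraries, 1 with the lane as a term, and 1 to 6 without single replicates. Calls over all genes, which set the background shares, moved too. They ranged over all settings from 41 to 6031 for nga against WT (3008 as reported, 41 without WT 1 and 47 without WT 2), from 1 to 344 for 35S:NGA against WT (27 as reported) and from 145 to 2517 for 35S:NGA against nga (949 as reported). The cause of these changes was not tested. Without WT 1 or WT 2 the remaining WT library is assumed to vary like the other groups.

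The replicate numbers were not shown to pair the libraries: over 7 same-numbered pairs the correlation of deviations from the group means ran from -0.26 to 0.37. With the replicate block, ANNAT2 differed by -0.77 for nga against WT (limma, adjusted p = 0.0395) and by 0.91 for 35S:NGA against nga (adjusted p = 0.0326).

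Depth limits ANNAT5, ANNAT6 and ANNAT7, at 0 to 9 reads a library, and ANNAT8, at about 13.8 to 50.8 reads. WT has 2 libraries, and no 35S:NGA library shares a lane with WT.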
